A study of Homo sapiens with 6 samples.

Results

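RhoGAP and RhoGEF genes are the genes that carry ARHGAP or ARHGEF symbols, and their transcript levels were compared between H1 cells differentiated to definitive endoderm (DE) with and without saracatinib (SAR), an inhibitor of Src family kinases. Every gene ID of the expression table whose symbol is ARHGAP or ARHGEF followed by a number, with or without 1 final letter, was taken, except 2 symbols left out by the rule. This gave 60 of the 40396 genes of the table, of which 35 are RhoGAP and 25 are RhoGEF genes. The rule uses names only and no measured value, but it was set with earlier results of these data known.

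RHOA, RAC1, CDC42 and related small GTPases act as switches that set actin assembly, contractility and cell adhesion. RhoGEFs load them with GTP and turn them on, and RhoGAPs speed the hydrolysis of GTP and turn them off. Src and focal adhesion kinase (FAK) phosphorylate or bind several of these proteins at integrin adhesions, so that adhesion signaling and GTPase activity are coupled.

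H1 is an established human embryonic stem cell line. All 6 samples were exposed to 50 ng/mL activin A for the whole differentiation and to 2.5 µM CHIR99021, which activates Wnt signaling, in the first 24 h, and RNA was taken on day 3. The 3 SAR samples had 0.5 µM SAR in the medium from beginning to end, and the 3 control samples had DMSO, the solvent. At this concentration, the authors report lower FAK phosphorylation at some of its sites and no effective inhibition of Src phosphorylation. The labels do not say whether the samples came from separate cultures, so p-values measure the spread between these samples only, which may be technical.

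Values are FPKM, the fragments of a gene scaled by gene length and by the library's total. The read totals recovered from the FPKM were 18877964 to 24419937 in control and 16681280 to 18389543 with SAR. Control replicate 1 had 33169 genes above 0, against 29506 to 30109 in the other libraries. FPKM carry no scaling between libraries beyond the library total, and the median of all 16371 tested genes was 0.12 higher with SAR on the log2 scale. The main counts are therefore also given after median-ratio rescaling, which moved that median to -0.02. All 10 DE markers examined were detected and passed the test, 4 of them higher with SAR (FOXA2, SOX17, KIT and HHEX) and 6 lower (GSC, EOMES, CER1, GATA4, CXCR4 and GATA6). In bulk samples such as these, fewer cells of a type and less RNA per cell cannot be told apart.

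Of the 60 genes, 48 averaged 0.5 FPKM or more and were tested, 27 RhoGAP and 21 RhoGEF genes. With limma and Benjamini-Hochberg adjustment over all tested genes, 18 of the 48 had an adjusted p under 0.05. Of the RhoGAP genes, 9 of 27 were downregulated (33.3%) and 2 were upregulated (7.41%). Over all tested genes 9.55% were lower and 23.7% higher by the same rule. Of the RhoGEF genes, 7 of 21 were upregulated (33.3%) and 0 were downregulated. The downregulated RhoGAP genes were thus a larger share than among all genes, and the upregulated RhoGEF genes were a share nearer to it.

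After median-ratio rescaling 10 RhoGAP genes were lower (37.0%), against 15.5% of all genes, and 1 was higher. Only 3 RhoGEF genes were then higher (14.3%), against 12.6% of all genes, and 2 were lower (9.52%). The larger share of lower genes among the RhoGAP genes held on both scales, whereas the share of higher genes among the RhoGEF genes was near that of all genes after rescaling. Leaving out control replicate 2 or control replicate 3 left 3 upregulated RhoGEF genes and 1 upregulated RhoGAP gene in the FPKM as deposited, and leaving out SAR replicate 2 left 4 upregulated RhoGEF genes.

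Few of these changes reached a 2-fold difference. With an absolute log2 fold change above 1 as a further condition, 1 RhoGAP gene was called lower (ARHGAP5) and 1 RhoGEF gene was called higher (ARHGEF15). Over all tested genes 1.58% were called lower and 3.41% higher by that rule.

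**Figure D1:**
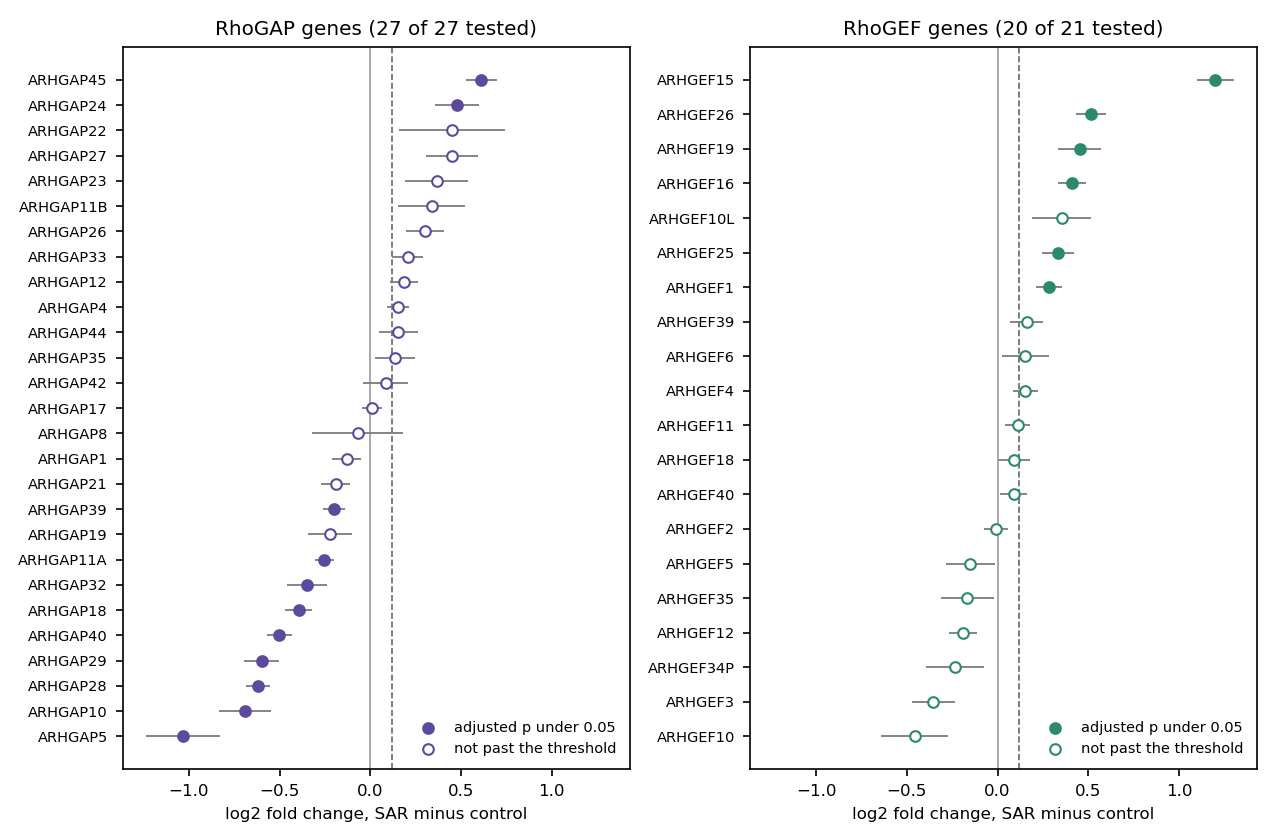
Log2 fold changes (SAR minus control) of the tested RhoGAP (27) and RhoGEF genes (20 of 21 drawn), with bars for the standard error and filled points for an adjusted p under 0.05; the solid line marks 0 and the dashed line the median of all tested genes, 0.12. Filled RhoGAP points lie mostly to the left, from ARHGAP5 at -1.03 to ARHGAP39 at -0.20, and filled RhoGEF points all lie to the right, up to ARHGEF15 at 1.20.

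ARHGAP18, ARHGAP28 and ARHGAP40 form a small subfamily of related RhoGAPs, and all 3 were downregulated. ARHGAP18 restrains RHOA at the cell edge. ARHGAP40, the second most abundant RhoGAP transcript by FPKM, measured 19.9, 20.8 and 18.8 FPKM in control and 13.9, 13.2 and 14.8 with SAR. Every SAR library lay below every control library. The log2 fold change was -0.50 with a standard error of 0.0665 (limma adjusted p = 0.00284).

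ARHGAP28 measured 13.5, 14.8 and 13.2 FPKM in control and 9.40, 9.01 and 8.52 with SAR (log2 fold change -0.62, limma adjusted p = 0.0016). ARHGAP18 measured 4.53, 4.37 and 4.78 FPKM in control and 3.49, 3.21 and 3.64 with SAR (log2 fold change -0.40, adjusted p = 0.0095). Neither gene showed any overlap between the groups. Together the 3 transcripts summed to 38.2 ± 1.61 FPKM in control and 26.4 ± 0.845 with SAR (SD, n = 3 each), and all 3 also passed after rescaling.

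Because these 3 transcripts moved together, their promoters were examined, as far as the RefSeq table holds them (GRCh38.p14). It matched 46 of the 60 genes, and the window taken was 250 bases before the start. The window of ARHGAP40 lies at chr20:38601559-38601808 on the plus strand, is 54.4% GC and touches no annotated exon of the gene. It is shown 5′ to 3′ with CG pairs in capitals.
ARHGAP40: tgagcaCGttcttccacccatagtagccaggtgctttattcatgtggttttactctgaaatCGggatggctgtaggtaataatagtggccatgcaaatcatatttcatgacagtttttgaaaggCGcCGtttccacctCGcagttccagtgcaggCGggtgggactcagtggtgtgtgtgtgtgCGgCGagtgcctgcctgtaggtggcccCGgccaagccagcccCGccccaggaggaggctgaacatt
It holds 10 CG pairs, against a median of 11 over 35116 promoters, and 52.2% of promoters hold as many or more. The window of ARHGAP18 holds 10 CG pairs and that of ARHGAP28 holds 0. These 2 windows overlap exons of their own genes by 48 and 10 bases, and that of ARHGAP28 (from chr18:6834235) lies inside the gene, whose GENCODE start is at 6729718, so the counts are not set against that of ARHGAP40.

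The 46 windows were also searched on both strands for motifs of 3 factor families. The TEAD motif GGAATG was in 1 window (ARHGAP45) and in 11.9% of all promoters. The AP-1 motif TGANTCA was in 0 windows and in 6.57% of all promoters, and the FOX motif TGTTTAC was in 1 (ARHGAP12) and in 2.98%. None of the 3 was in the windows of the 8 downregulated RhoGAP or 4 upregulated RhoGEF genes that have one. These letters being absent from a short window says nothing of the factors themselves.

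ARHGAP5 and ARHGAP35 encode the p190 RhoGAPs, which lower RHOA activity at adhesions and of which the product of ARHGAP35 is a classical Src substrate. ARHGAP5 measured 5.19, 7.38 and 7.03 FPKM in control and 2.50, 2.91 and 4.10 with SAR. The highest SAR library stayed below the lowest control library, although both groups were spread widely. Its level with SAR was 48.5% of the control mean, and the log2 fold change was -1.03 with a standard error of 0.204 (limma adjusted p = 0.0105). The adjusted p was under 0.05 under every alternative tried, but the 2-fold condition was missed without SAR replicate 1 (-0.88), SAR replicate 2 (-0.99), control replicate 2 (-0.94) or control replicate 3 (-0.97), and with a pseudocount of 1 (-0.86).

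ARHGAP5 lies at chr14:32076114-32159728 on GRCh38, and 36.0% of its exon bases lie opposite antisense genes. How the authors' counting treated strand is not given in the sources used here. The antisense gene ARHGAP5-AS1 measured 1.05 ± 0.166 FPKM in control and 0.933 ± 0.229 with SAR (SD, n = 3 each). Its log2 fold change was -0.17 (adjusted p = 0.577). ARHGAP35 measured 4.61, 4.60 and 4.89 FPKM in control and 4.34, 5.57 and 5.68 with SAR. Its groups overlapped, and its log2 fold change of 0.13 did not pass the test (adjusted p = 0.377). The difference between the 2 paralogs was not itself tested.

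The GRAF proteins are RhoGAPs of which the founding member, ARHGAP26, binds FAK. ARHGAP10 was downregulated, from 1.26, 1.16 and 1.11 FPKM in control to 0.736, 0.702 and 0.637 with SAR. The groups did not overlap, and the log2 fold change was -0.69 (limma adjusted p = 0.0126). ARHGAP26 measured 1.82 ± 0.157 FPKM in control and 2.26 ± 0.188 with SAR (SD, n = 3), and its log2 fold change was 0.30 (limma adjusted p = 0.0662). ARHGAP42, the most abundant RhoGAP transcript by FPKM, measured 16.2, 21.6 and 19.6 FPKM in control and 19.4, 18.5 and 22.8 with SAR. Its groups overlapped throughout (log2 fold change 0.09, adjusted p = 0.619), and the sign of this value turned after rescaling (-0.05).

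ARHGAP29 inactivates RHOA and is a known target gene of YAP. It measured 6.48, 6.70 and 6.91 FPKM in control and 4.29, 3.92 and 5.02 with SAR. All SAR libraries were lower than all control libraries, with a log2 fold change of -0.60 (limma adjusted p = 0.00533). Of the other F-BAR RhoGAPs, ARHGAP45 was upregulated from 2.78, 2.39 and 2.40 to 3.74, 3.90 and 4.07 FPKM (log2 fold change 0.61, adjusted p = 0.00347). ARHGAP4 measured 4.10, 3.97 and 4.03 FPKM in control and 4.56, 4.56 and 4.38 with SAR (adjusted p = 0.0894).

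ARHGAP11A and ARHGAP19 act on RHOA in dividing cells. ARHGAP11A measured 10.7, 11.3 and 10.7 FPKM in control and 9.13, 9.05 and 9.16 with SAR, a small change with little spread (log2 fold change -0.25, limma adjusted p = 0.0124). ARHGAP19 measured 16.8 ± 1.28 FPKM in control and 14.5 ± 2.31 with SAR (SD, n = 3), with overlap (limma adjusted p = 0.202). Of 17 tested genes on a cell cycle list, 8 were lower, among them CDK1, CCNA2 and ANLN, and 0 were higher. Over all tested genes 9.55% were lower and 23.7% higher. After rescaling 11 of the 17 were lower and 0 higher, against 15.5% and 12.6% of all genes. The 18 genes of that list summed to 585 to 638 FPKM in control and 505 to 559 with SAR. Their part in the RhoGAP changes was not tested. ARHGAP11A shares 4.76% of its 100-base stretches with its partial copy ARHGAP11B, whose log2 fold change was 0.34 (adjusted p = 0.2). Of the exon bases of ARHGAP11A, 15.5% lie opposite other genes.

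The last 2 downregulated RhoGAP genes changed little and lay near the threshold. ARHGAP32 measured 4.20, 4.47 and 4.29 FPKM in control and 2.98, 3.24 and 3.97 with SAR (log2 fold change -0.35, limma adjusted p = 0.0489). ARHGAP39, named after its values were seen, had a log2 fold change of -0.20 (adjusted p = 0.0443). Both lost the call without any 1 of 5 libraries, the exception being SAR replicate 3. Among the 9 downregulated RhoGAP genes, SAR replicate 3 was the highest of the SAR libraries for 7.

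ARHGAP24, known as FilGAP, binds filamin A and acts on RAC1. It was the second upregulated RhoGAP gene, at 1.77, 1.91 and 1.97 FPKM in control and 2.48, 2.40 and 3.15 with SAR (log2 fold change 0.48, limma adjusted p = 0.0243). The groups did not overlap, but the call was lost after rescaling (0.34, adjusted p = 0.081) and without control replicate 1, 2 or 3. Of its exon bases 12.6% lie opposite MAPK10, whose own log2 fold change was 0.77 (adjusted p = 0.00532). The other 16 tested RhoGAP genes had log2 fold changes of -0.22 to 0.45 and adjusted p-values of 0.0504 to 0.912.

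**Figure D2:**
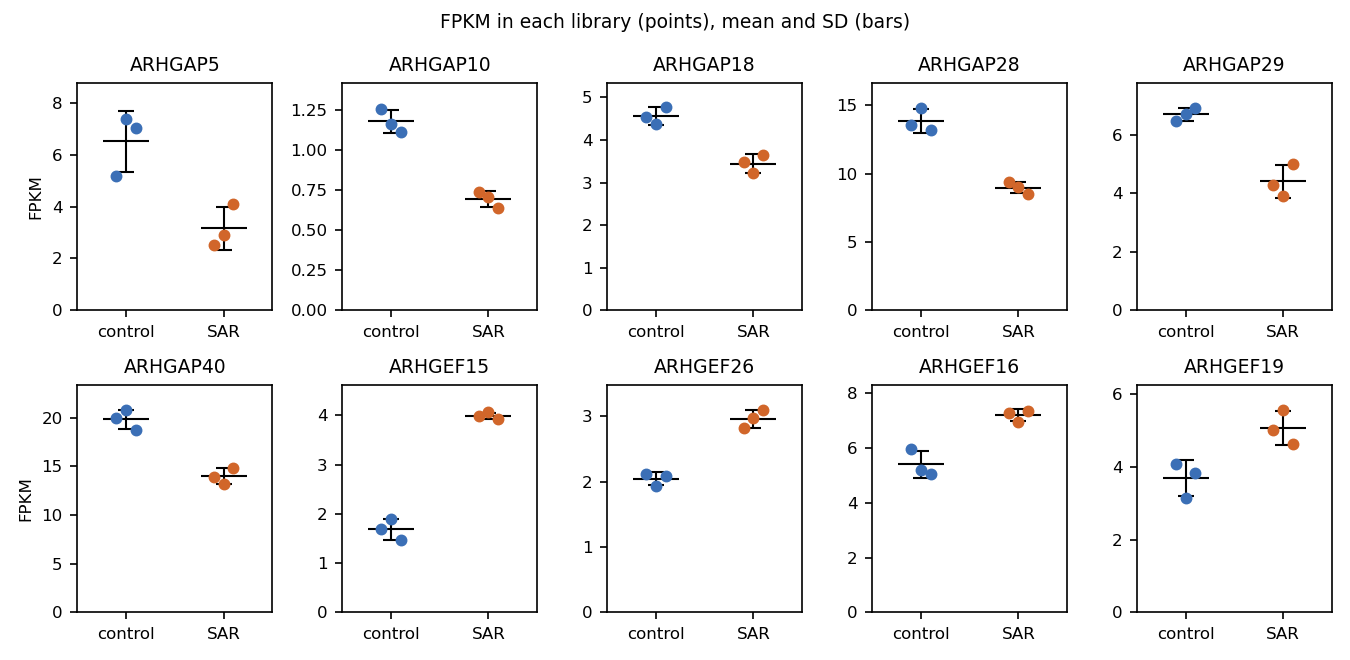
FPKM of 6 downregulated RhoGAP and 4 upregulated RhoGEF genes in each of the 3 control and 3 SAR libraries (points), with the mean and SD as bars. The groups do not overlap for any of the 10 genes.

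Among the tested RhoGEF genes, the ephexin group held the 3 highest fold changes, with 4 of its 5 genes upregulated, 3 of them also after rescaling. Of all tested genes, 23.7% were higher as deposited and 12.6% after rescaling. ARHGEF15, which acts on RHOA and is best known from endothelial cells and neurons, measured 1.70, 1.89 and 1.47 FPKM in control and 3.98, 4.06 and 3.93 with SAR. The SAR libraries lay close together and far above the control libraries, at 236% of the control mean. Its log2 fold change was 1.20 with a standard error of 0.102 (limma adjusted p = 0.000716), and only a pseudocount of 1 brought it under the 2-fold condition (0.90).

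ARHGEF26, an exchange factor for RHOG, measured 2.12, 1.94 and 2.09 FPKM in control and 2.82, 2.97 and 3.10 with SAR (log2 fold change 0.51, limma adjusted p = 0.00491). ARHGEF16, which also activates RHOG, measured 5.94, 5.19 and 5.04 FPKM in control and 7.27, 6.94 and 7.34 with SAR (log2 fold change 0.41, adjusted p = 0.00931). Both kept their calls after rescaling. ARHGEF19, an exchange factor for RHOA, measured 4.10, 3.14 and 3.85 FPKM in control and 5.02, 5.56 and 4.64 with SAR (log2 fold change 0.45, adjusted p = 0.0266). It did not pass after rescaling (0.32, adjusted p = 0.0645).

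ARHGEF5 was the exception in the group, at 3.27, 4.63 and 3.35 FPKM in control and 3.28, 3.42 and 3.29 with SAR, with overlap (log2 fold change -0.15, limma adjusted p = 0.417). It shares 56.2% of its 100-base stretches with the pseudogene ARHGEF34P and 14.8% with ARHGEF35, so its reads are uncertain. NGEF, an ephexin without an ARHGEF symbol, was upregulated from a mean of 0.757 to 2.01 FPKM (log2 fold change 1.26, adjusted p = 0.0062).

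ARHGEF1, ARHGEF11 and ARHGEF12 couple heterotrimeric G proteins of the G12/13 class to RHOA. ARHGEF1 measured 6.94, 6.91 and 6.97 FPKM in control and 8.08, 8.06 and 9.30 with SAR, an upregulation by 0.28 on the log2 scale (limma adjusted p = 0.025) that did not pass after rescaling (0.14, adjusted p = 0.198). ARHGEF11 had a log2 fold change of 0.11 (adjusted p = 0.248). ARHGEF12 measured 2.80, 2.66 and 2.72 FPKM in control and 2.23, 2.41 and 2.50 with SAR, without overlap. Its log2 fold change of -0.19 did not pass the test (adjusted p = 0.104) but passed after rescaling (-0.32, adjusted p = 0.0236). ARHGEF3, named after its values were seen, did the same (-0.35, adjusted p = 0.0579, and -0.49, adjusted p = 0.0272 after rescaling).

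ARHGEF25 links Gq to RHOA. It measured 1.68, 1.88 and 1.91 FPKM in control and 2.26, 2.42 and 2.28 with SAR without overlap (log2 fold change 0.33, limma adjusted p = 0.0298). It did not pass after rescaling (0.20, adjusted p = 0.182). Of the exon bases of ARHGEF25, 23.3% lie opposite another gene, and of those of ARHGEF19, 11.7%.

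The most abundant RhoGEF transcript by FPKM was ARHGEF2, whose protein is held inactive on microtubules. It measured 8.92, 9.94 and 9.55 FPKM in control and 8.89, 9.48 and 9.87 with SAR. The libraries of the groups interleaved, with a log2 fold change of -0.01 and a standard error of 0.0683 (limma adjusted p = 0.928). ARHGEF40 measured 6.18 ± 0.231 FPKM in control and 6.58 ± 0.462 with SAR (SD, n = 3; adjusted p = 0.377). ARHGEF6, a partner of PAK kinases that acts on RAC1 and CDC42, measured 1.30 ± 0.165 and 1.45 ± 0.0981 FPKM (adjusted p = 0.388). In all, 14 tested RhoGEF genes did not pass, with log2 fold changes of -0.46 to 0.35 and adjusted p-values of 0.0579 to 0.928.

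RhoGAP and RhoGEF genes were next set against each other within each library, as a ratio of sums that no scaling of a library can change. Over all 35 RhoGAP and 25 RhoGEF genes, whether tested or not, summed RhoGAP FPKM was 159, 170.1 and 163 in control and 139.8, 143 and 158 with SAR, and summed RhoGEF FPKM was 71.7, 72.2 and 71.8 in control and 78.1, 81.0 and 84.0 with SAR. In the FPKM as deposited, the RhoGEF sums of the groups lay apart, and so did the RhoGAP sums, by a narrow margin. Unlike the ratio, these sums depend on library scaling, and the median of all tested genes was 0.12 higher with SAR. Whether the sums also lie apart after rescaling was not tested. The ratio of the RhoGAP to the RhoGEF sum was 2.28 ± 0.0681 in control and 1.81 ± 0.0631 with SAR (SD, n = 3 each). ARHGAP18, ARHGAP28 and ARHGAP40 contributed to this, and without them the ratio was 1.75 ± 0.0560 and 1.49 ± 0.0659. Genes are not replicates, so no test was made of one family against the other.

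The medians of the ARHGAP and ARHGEF genes gave the same order, unlike those of RhoGAPs and RhoGEFs with other symbols, given below. The median log2 fold change was 0.01 over the 27 RhoGAP genes, 0.15 over the 21 RhoGEF genes and 0.12 over all tested genes. Within libraries, each gene was set against its own control mean, which keeps the control values small by construction. On that scale the RhoGEF median minus the RhoGAP median was 0.01, -0.04 and 0.02 in control and 0.20, 0.14 and 0.19 with SAR. The difference between the 2 medians of fold changes, 0.14, fell to 0.07 without control replicate 2 and to 0.09 without control replicate 3.

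**Figure D3:**
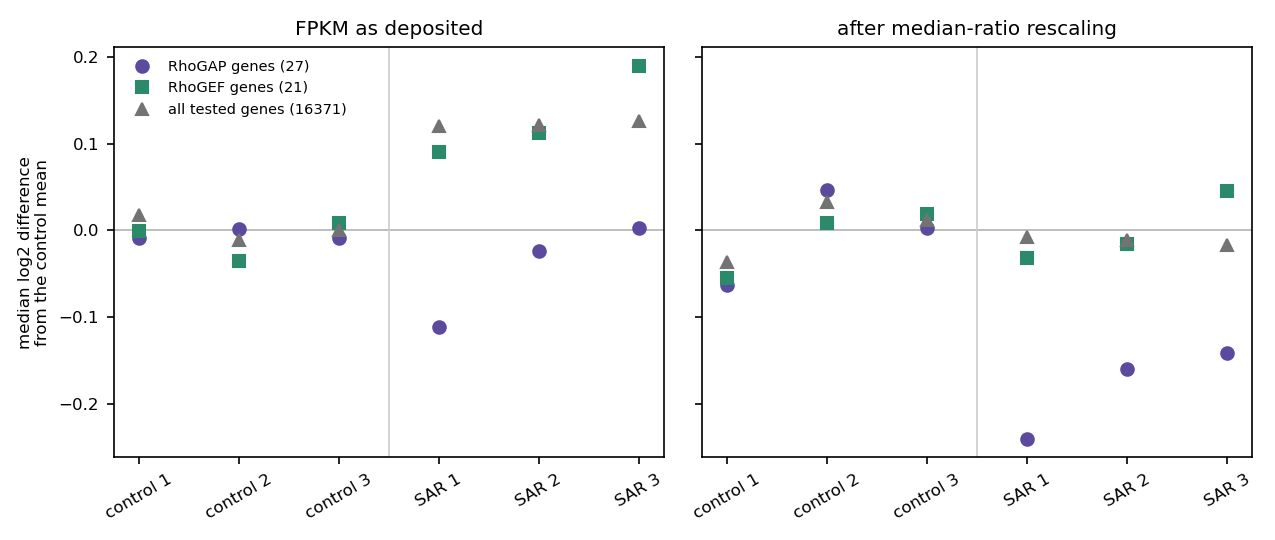
Median log2 difference from the control mean of RhoGAP genes (circles), RhoGEF genes (squares) and all tested genes (triangles) in each library, for FPKM as deposited (left) and after median-ratio rescaling (right). The RhoGAP medians lie below those of all genes in the 3 SAR libraries in both panels, and the RhoGEF medians lie near those of all genes.

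The groups failed to overlap for 9 RhoGAP genes lower with SAR (33.3%) and 7 higher (25.9%), and for 3 RhoGEF genes lower (14.3%) and 9 higher (42.9%). Over all tested genes, 15.2% were lower and 35.5% higher without overlap, or 50.7% in either direction.

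RhoGAPs and RhoGEFs with other symbols were counted in the same way. Of 23 tested, 1 other RhoGAP was lower and 1 was higher (FAM13A, log2 fold change 0.28). Of 39 tested other RhoGEFs, 8 were lower (20.5%) and 6 higher (15.4%), against 9.55% and 23.7% of all tested genes. After rescaling 12 were lower (30.8%) and 2 higher (5.13%), against 15.5% and 12.6%. AKAP13, an exchange factor for RHOA, had a log2 fold change of -0.99 (limma adjusted p = 0.00109), and PREX2, which acts on RAC1, had 0.52 (adjusted p = 0.00811). The larger share of lower genes among the ARHGAP genes was therefore not seen in the other RhoGAPs, and the other RhoGEFs had lower genes where the ARHGEF genes had 0, though neither difference was tested. Median log2 fold changes ran in the opposite order, 0.04 over the other RhoGAPs and -0.07 over the other RhoGEFs. Summed FPKM of the other RhoGAPs was 139.8, 152.2 and 146.0 in control and 134.0, 140.5 and 148.0 with SAR. For the other RhoGEFs it was 201.0, 204.6 and 206.0 in control and 179.7, 190.2 and 206.2 with SAR. Both sums overlapped between the groups, so the lower ratio with SAR is reported for ARHGAP and ARHGEF genes only.

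Of the 16 tested GTPases themselves, 7 were higher and 2 lower, and 5 were higher and 2 lower after rescaling, where all tested genes also had more higher than lower calls as deposited (23.7% and 9.55%) but not after rescaling (12.6% and 15.5%). RHOU, RND1 and RND2, which are atypical members that are not switched by the usual cycle, had log2 fold changes of 0.67, 0.85 and 0.40. CDC42 (-0.35) and RHOB (-0.46) were lower, and RHOA had a log2 fold change of -0.03 (limma adjusted p = 0.649). Of the inhibitors that hold GTPases in the cytosol, ARHGDIA was lower (-0.52) and ARHGDIG higher (0.87). Of 36 effectors, 8 were lower and 7 higher, among them the formin DIAPH3 (-0.80), the scaffold IQGAP1 (-0.76) and the RHOA binding protein RHPN1 (0.85).

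**Figure D4:**
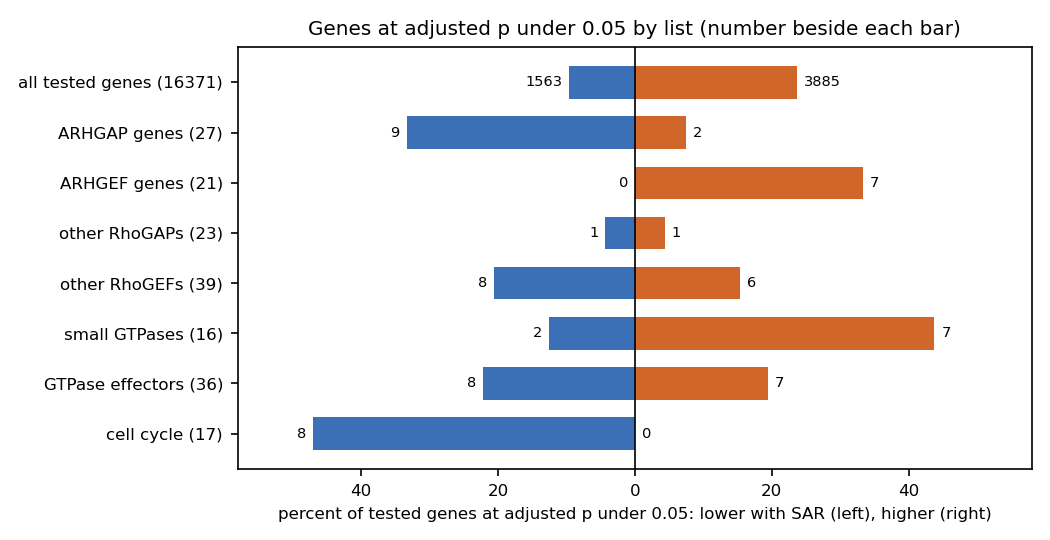
Percent of the tested genes of each list with an adjusted p under 0.05, lower with SAR to the left and higher to the right, with the number of genes beside each bar. The ARHGAP genes (9 lower, 2 higher) and the cell cycle genes (8 lower, 0 higher) extend mainly to the left, and the ARHGEF genes (0 lower, 7 higher) and the small GTPases (2 lower, 7 higher) mainly to the right.

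Markers of other lineages moved as well. Of 3 tested node and notochord markers, 3 were higher, and all 5 genes of the list summed to 0.738 to 1.51 FPKM in control and 12.7 to 20.7 with SAR. Of 3 tested mesoderm markers, 2 were higher and 1 lower, with 4 of the 7 on the list under the filter. Of 6 pluripotency markers, 1 was higher and 1 lower, and likewise of 3 tested neural markers. Their part in the RhoGAP and RhoGEF changes was not tested.

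The 12 genes under the filter were ARHGAP6, ARHGAP9, ARHGAP15, ARHGAP20, ARHGAP25, ARHGAP30, ARHGAP31, ARHGAP36, ARHGEF28, ARHGEF33, ARHGEF37 and ARHGEF38, with means of 0.0244 to 0.299 FPKM and 0 to 80 reads per library. Without a filter none of them passed the limma test. ARHGAP20 had 29, 36 and 22 reads in control and 4, 8 and 14 with SAR, without overlap (adjusted p = 0.178). ARHGAP31 had 76, 80 and 61 reads in control and 39, 30 and 50 with SAR, also without overlap (adjusted p = 0.43). ARHGEF38 had 19, 4 and 5 reads in control and 21, 28 and 28 with SAR (adjusted p = 0.135). ARHGEF28, which binds FAK, had 59, 8 and 12 reads in control and 17, 18 and 17 with SAR, its highest value being in control replicate 1. That library was the highest of the 6 for 9 of these 12 genes, and for 32.2% of all 24025 genes under the filter and above 0.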

How the data were processed

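RNA-seq of 3 control and 3 SAR samples of H1 cells was analysed, with conditions and replicate numbers taken from the sample labels. The authors selected mRNA with oligo(dT) beads, made paired-end libraries and deposited FPKM for 40396 Ensembl gene IDs, with 1 column per library. The submitters' processing notes name HISAT2, featureCounts (Subread), DESeq2 and GRCh38.p13. The annotation release and strand setting are not given in the sources used here. Symbols were matched for 30235 IDs. The genes and lists were chosen with earlier results of these data known.

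FPKM are not counts, so genes were tested with limma 3.58.1 under R 4.3.3 (lmFit, eBayes with an intensity trend, two-sided) on log2(FPKM + 0.1), for the 16371 genes that averaged 0.5 FPKM or more, with Benjamini-Hochberg adjustment over all of them. Fold changes are on this log2(FPKM + 0.1) scale, which understates changes of low genes. Calls required an adjusted p under 0.05, and for the 2-fold rule an absolute log2 fold change above 1. Whole reads were recovered for 99.9% of 33998 genes above 0 in at least 2 libraries (tolerance 0.02 reads), with their size set by GENCODE 29 exon lengths. They gave the depth (33 to 4901 reads per library for tested RhoGAP and RhoGEF genes) and a voom alternative, and they cover counting error only. Libraries of 1 group had chi-squares per degree of freedom between 3.77 and 11.2 for their reads, so none was a copy of another. Positions and exon overlaps are those of GENCODE 29. Promoters are from RefSeq, and the promoter search was added after the fold changes had been seen.

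Named genes were those past both thresholds, the 8 that rose most and the 8 that fell most among those at an adjusted p under 0.05, the 4 RhoGAP and 4 RhoGEF genes with the highest mean FPKM, 12 with a known link to Src, FAK, YAP or G proteins, members of subfamilies, and up to 3 genes of each other list. Some genes that this rule names are counted but not reported here. Alternatives were a replicate block, voom, other pseudocounts (1 and 0.01), a filter at 1 FPKM or none, rescaling by median ratios or by quantiles, a constant variance prior, and each library left out in turn. Summaries used Python 3.11.15 with pandas 2.3.3 and numpy 2.4.6, and plots matplotlib 3.10.9.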

Additional observations from a re-analysis of the deposited data

How the results depend on the processing

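The count of downregulated RhoGAP genes at an adjusted p under 0.05 (limma) was 9 and lay between 7 and 10 under all alternatives. Median-ratio rescaling left 1 upregulated RhoGAP gene, 3 upregulated and 2 downregulated RhoGEF genes, with medians of -0.1277 for RhoGAP and 0.0177 for RhoGEF genes. Quantile normalization gave 1, 3 and 3, with medians of -0.0873 and 0.0076 and a difference of 0.0949. Without a filter 1 RhoGAP and 3 RhoGEF genes were upregulated, which comes with more genes tested. With a pseudocount of 1, 0 RhoGAP and 0 RhoGEF genes passed the 2-fold rule, the RhoGEF median was 0.0961 and the difference 0.0881. Voom on recovered reads gave 4 upregulated RhoGAP and 3 downregulated RhoGEF genes. Leaving out 1 library at a time gave 0 to 1 RhoGAP genes called lower by the 2-fold rule, 1 to 3 upregulated RhoGAP, 3 to 6 upregulated and 0 to 1 downregulated RhoGEF genes, and differences of the medians of 0.0665 to 0.1872. The cause of these shifts was not tested, and leaving out a library also leaves fewer samples.

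Leaving out the 5 genes that share 100-base stretches, an alternative chosen after seeing the data, left 8 downregulated RhoGAP and 7 upregulated RhoGEF genes.

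Deviations of control and SAR libraries with the same number correlated by 0.073, 0.003 and 0.025, and those with different numbers by -0.083 to 0.067. The numbers thus gave no sign of pairing, although these values cannot exclude it. With a replicate block, 13 of the 18 genes kept an adjusted p under 0.05, 7 of them downregulated RhoGAP genes and 4 upregulated RhoGEF genes.

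Among the named genes, 323 of the gene and alternative pairs kept direction and side of the threshold, 51 lost the call and 5 gained one. Direction turned only in genes that did not pass the test: after median-ratio rescaling ARHGAP35 (-0.0023), ARHGAP42 (-0.0535), ARHGEF11 (-0.0256) and ARHGEF40 (-0.0491), after quantile normalization ARHGEF40 (-0.0017) and ARHGEF6 (-0.0413), and with each library left out in turn ARHGAP42 (-0.0304 to 0.1763) and ARHGEF2 (-0.0512 to 0.0310). ARHGAP11A, ARHGAP18, ARHGAP28, ARHGAP29, ARHGAP40, ARHGAP45, ARHGEF16 and ARHGEF26 had an adjusted p under 0.05 in all 15 alternatives. So did ARHGAP5 and ARHGEF15, which lost only the 2-fold condition in some of them. Reads of ARHGEF5, ARHGEF35 and ARHGEF34P, and of ARHGAP11A and ARHGAP11B, cannot be fully told apart, and 3 libraries per group limit the precision.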
